A study of Homo sapiens with 18 samples.

Results

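The comparison described here set A375 cells that carried a TADA2B knockout and overexpressed SOX10 against control cells that had neither, and asked what remained different, or became different, from control once SOX10 had been added back. A375 is an established human melanoma line. Of the 18 libraries in the series, 9 entered the comparison: 3 from control cells carrying a guide RNA against GFP (TADA2B genotype WT in the labels, no SOX10 overexpression), 3 from cells knocked out with TADA2B guide 1 that overexpressed SOX10, and 3 from cells knocked out with TADA2B guide 2 that overexpressed SOX10. The guides were weighted equally. The knockout lines without SOX10 (3 libraries per guide) were used to sort the genes, and control cells with SOX10 (3 libraries) are quoted for their levels. Both also entered the shared fit from which the spread was estimated. All 6 groups share the A375 background and a guide RNA, and the control guide has no target in an unmodified human genome. Whether a knockout line was a pool or 1 clone, and which promoter and coding sequence the SOX10 construct had, was not described in the labels. The libraries of a group are numbered, with no word on whether each had its own culture, so the p-values speak only for the spread among these libraries, part of which may be technical.

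TADA2B is the adaptor of the histone acetylation module of SAGA, a coactivator complex that acetylates histone H3 at promoters and also carries a histone H2B deubiquitinase. SOX10 is the HMG-box transcription factor that specifies neural crest, Schwann cells and melanocytes, where it drives pigment, myelin and ERBB3 genes. Loss of SOX10 in melanoma cells is known to accompany a dedifferentiated state with high levels of receptor tyrosine kinases and secreted proteases.

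Depth was 58.6 to 78.6 M counts per library in the 9 libraries. Levels are counts-per-million values (CPM) scaled by TMM, a library scaling that takes most genes as unchanged, and a count of 3 corresponded to 0.0366 to 0.0493 CPM. Across genes, which do not replicate each other, libraries of a group correlated with r of 0.9926 to 0.9939. Mitochondrially encoded transcripts took 0.732% to 0.996% of the counts in control cells, 0.986% to 1.27% in guide 1 with SOX10 and 1.11% to 1.46% in guide 2 with SOX10. The TADA2B transcript (ENSG00000173011) was present in every group. It measured 32.8, 32.2 and 32.5 CPM in the control libraries, 23.9, 26.8 and 25.3 CPM in guide 1 with SOX10 and 27.5, 25.7 and 27.6 CPM in guide 2 with SOX10. All 6 knockout libraries with SOX10 lay below the 3 controls, by a log2 difference of −0.32 (SE 0.040, adjusted p = 8.03e-09). A guide makes small insertions or deletions, so this level does not measure the protein. SOX10 (ENSG00000100146; hg38 chromosome 22, 37970686 to 37987422) measured 358, 341 and 364 CPM in control cells, 281, 286 and 307 CPM in guide 1 with SOX10 and 248, 251 and 240.0 CPM in guide 2 with SOX10. The SOX10 count of these lines was thus still below control in every library, with a log2 difference of −0.40 (SE 0.031, adjusted p = 7.37e-13). Reads of the construct and of the cells' own gene cannot be told apart in these counts.

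With SOX10 added back, most genes tested were called different from control, and genes at least 2-fold from control were mostly higher than it. Of 21060 genes tested, 12192 (57.9%) were called changed at an adjusted p under 0.05, 6326 higher (30%) and 5866 lower (27.9%). At least 2-fold, 2664 genes (12.6%) were called, 2088 higher (9.91%) and 576 lower (2.74%). The 2664 comprised 1778 protein-coding genes, 360 lincRNA genes and 218 antisense genes. All 6 libraries with knockout and SOX10 lay above or below all 3 controls at 10436 genes, 49.6% of those tested. Guide 1 with SOX10 alone gave 10760 called genes (51.1%) and guide 2 with SOX10 alone 11929 (56.6%). Both comparisons share the control libraries. In both guides, 5023 genes were called higher and 4669 lower, and 29 genes were called in opposite directions. The split into higher and lower genes depends on the scaling. With plain library-size scaling the median log2 difference of all genes moved from 0.014 to 0.161, and 73.5% of the called genes were higher, against 51.9% with TMM. Of the 12192 calls, 9621 kept both call and sign, and 181 were called in the opposite direction.

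Setting each gene beside its state in the knockout lines without SOX10 sorted the called genes into classes. That state was the mean of the guides compared with the same control libraries. The knockout lines without SOX10 differed from control at 12230 genes (58.1%), and SOX10 changed 11842 genes within the knockout lines (56.2%). In all, 8025 genes (38.1% of those tested) remained different, meaning that they were called in the same direction without and with SOX10. Of these, 1761 were still at least 2-fold from control. Among the 1761 genes, 601 had moved toward control with SOX10, 551 had moved further away from it, and 609 had no SOX10 change called. A further 2389 genes were newly different, that is, called with SOX10 but not without it and changed by SOX10 within the knockout lines, and 540 of them were at least 2-fold from control, 458 higher and 82 lower. Another 1122 genes had crossed, being called on opposite sides of control without and with SOX10, and 224 of these were at least 2-fold from it, 174 higher and 50 lower. Against these, 2520 genes were no longer called different and had a SOX10 change called. A further 563 genes were called only without SOX10 and 656 only with it, with no SOX10 change called for either set. Replicate 2 of guide 2 without SOX10 stood apart from the other libraries of its group. Besides this sorting, it entered the shared fit, which gives the gene filter and the spread for every comparison. When it was left out, 12148 of the 12192 calls of the knockout lines with SOX10 against control kept call and sign. Without it 8048 genes remained different, 2484 were newly different and 1196 had crossed. A gene that missed the threshold is not thereby shown to equal control.

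**Figure D1:**
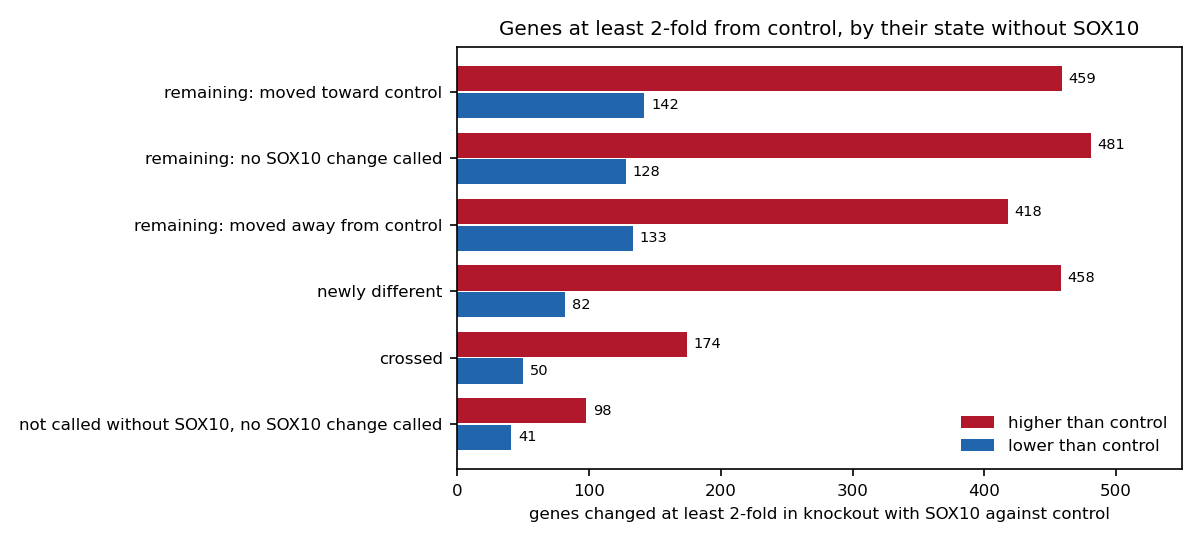
Genes at least 2-fold from control in the knockout lines with SOX10 (x axis, number of genes), by their state without SOX10 (y axis) and their direction (red higher, blue lower). In each class shown the genes higher than control outnumber the lower ones, for example 458 against 82 among newly different genes and 481 against 128 among remaining genes with no SOX10 change called.

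Genes that the knockout had raised and genes that it had lowered ended differently. Of the 2015 genes at least 2-fold higher in the knockout without SOX10 (9.57% of genes tested), 21.9% were no longer called different and had a SOX10 change called. Another 3.87% were no longer called different but had no SOX10 change called, and 3.13% had crossed. Of the same 2015, 35.3% remained higher but had moved toward control, 23.9% remained with no SOX10 change called and 11.9% had moved further up. Their median log2 difference from control went from 1.9 to 1.3. Of the 1134 genes at least 2-fold lower in the knockout (5.38% of genes tested), 24.5% were no longer called different and had a SOX10 change called. Another 5.38% of the 1134 were no longer called different but had no SOX10 change called, and 17.9% had crossed to above control. Of the same 1134, 35.7% remained lower but had moved toward control, 11.8% remained with no SOX10 change called and 4.67% had moved further down. Their median went from −1.64 to −0.54. These shares describe genes chosen by their own level in the knockout, and the difference between the directions was not tested.

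Genes were named by class only if called in each guide, with all 6 knockout libraries with SOX10 on the same side of the 3 controls. Lack of overlap with control was thus a condition for these genes and not a result. By this rule, among protein-coding genes with at least 10 control reads that were above control both without and with SOX10, MMP12, LCP1 and ANKRD1 stood furthest from it. In all 3 SOX10 carried the level further from control. MMP12 (chromosome 11, 102862736 to 102875034), a macrophage metalloelastase that degrades elastin, measured 0.0447, 0.133 and 0.215 CPM in control cells, 22.9, 22.6 and 22.1 CPM in guide 1 with SOX10 and 27.9, 26.2 and 28.6 CPM in guide 2 with SOX10. The fitted difference was 189-fold (log2 7.56, SE 0.15, adjusted p = 3.16e-34). Without SOX10 the knockout lines had MMP12 means of 1.35 and 0.993 CPM, and control cells with SOX10 had a mean of 2.63 CPM, so the level with both changes was the highest of the 6 groups.

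ANKRD1 (chromosome 10, 90912096 to 90921276), an ankyrin repeat protein and a standard target gene of the YAP coactivator, measured 11.8, 11.9 and 13.9 CPM in control cells. It measured 392, 416 and 441 CPM in guide 1 with SOX10 and 741, 792 and 780 CPM in guide 2 with SOX10. The ANKRD1 difference was 45.2-fold (log2 5.50, SE 0.065, adjusted p = 2.73e-21), with every guide 2 library above every guide 1 library. Its means without SOX10 were 108 and 174 CPM in the knockout lines, and SOX10 in control cells gave 23.2 CPM.

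LCP1 (chromosome 13, 46125920 to 46211871), which encodes the actin bundler L-plastin of leukocytes, measured 0.104, 0.356 and 0.261 CPM in control cells, 10.4, 10.6 and 10.4 CPM in guide 1 with SOX10 and 15.8, 18.1 and 17.4 CPM in guide 2 with SOX10. The guides did not overlap each other, and the difference from control was 55.3-fold (SE of log2 0.145, adjusted p = 4.86e-31). KRT6A, a keratin of activated epidermis, measured 1.01, 0.563 and 1.14 CPM in control cells, 22.3, 22.2 and 25.7 CPM in guide 1 with SOX10 and 35.9, 39.1 and 40.3 CPM in guide 2 with SOX10. It too had moved away from control under SOX10, from a log2 difference of 1.32 without SOX10 to one of 5.05 with it. MAP2, a microtubule-associated protein of neurons, rose 32.5-fold from a control mean of 0.0856 CPM to 2.40 and 3.31 CPM. RAET1L, a stress ligand of the NKG2D receptor, rose 33.6-fold, and the leukocyte receptor gene VSTM1 41.0-fold.

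The genes that remained furthest below control by the same rule were CA9, TMEM178B, FXYD3, CEMIP, FAM20C and PKNOX2. CEMIP (chromosome 15, 80779343 to 80951776), a hyaluronan-depolymerising protein, measured 234, 228 and 228 CPM in control cells, 32.4, 32.3 and 25.6 CPM in guide 1 with SOX10 and 12.4, 9.62 and 8.68 CPM in guide 2 with SOX10. CEMIP was thus 13.0-fold lower with SOX10 and knockout together (log2 −3.70, SE 0.11, adjusted p = 1.53e-12), and its 3 groups did not overlap. It had already stood at 45.4 and 28.2 CPM in the knockout lines without SOX10, and SOX10 alone lowered it to 91.3 CPM in control cells. FAM20C, the Golgi kinase that phosphorylates secreted proteins, measured 43.9, 40.1 and 40.1 CPM in control cells, 5.83, 5.99 and 5.44 CPM in guide 1 with SOX10 and 2.16, 1.85 and 1.51 CPM in guide 2 with SOX10 (12.6-fold lower, adjusted p = 7.81e-30). CA9, a membrane carbonic anhydrase, was 15.4-fold lower but low throughout, at 1.07, 1.22 and 1.25 CPM in control cells and 0.0329 to 0.155 CPM in the other 6 libraries.

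SOX10 also moved PRRX1 and CXCL1 further below control. PRRX1 (chromosome 1, 170662728 to 170739419), a homeobox factor of mesenchyme, measured 130.0, 127 and 125 CPM in control cells, 24.3, 23.5 and 21.8 CPM in guide 1 with SOX10 and 11.1, 10.1 and 10.8 CPM in guide 2 with SOX10. All 3 groups were separate, and PRRX1 was 8.07-fold lower than control (SE of log2 0.036, adjusted p = 3.72e-42). Its mean was 51.1 and 35.0 CPM in the knockout lines without SOX10 and 136 CPM in control cells with SOX10. CXCL1, a chemokine for neutrophils, measured 35.7, 36.4 and 35.7 CPM in control cells, 5.45, 5.77 and 5.32 CPM in guide 1 with SOX10 and 3.35, 2.88 and 3.16 CPM in guide 2 with SOX10. Most of the CXCL1 difference was present without SOX10, with a log2 difference of −2.82 before and −3.11 after SOX10.

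**Figure D2:**
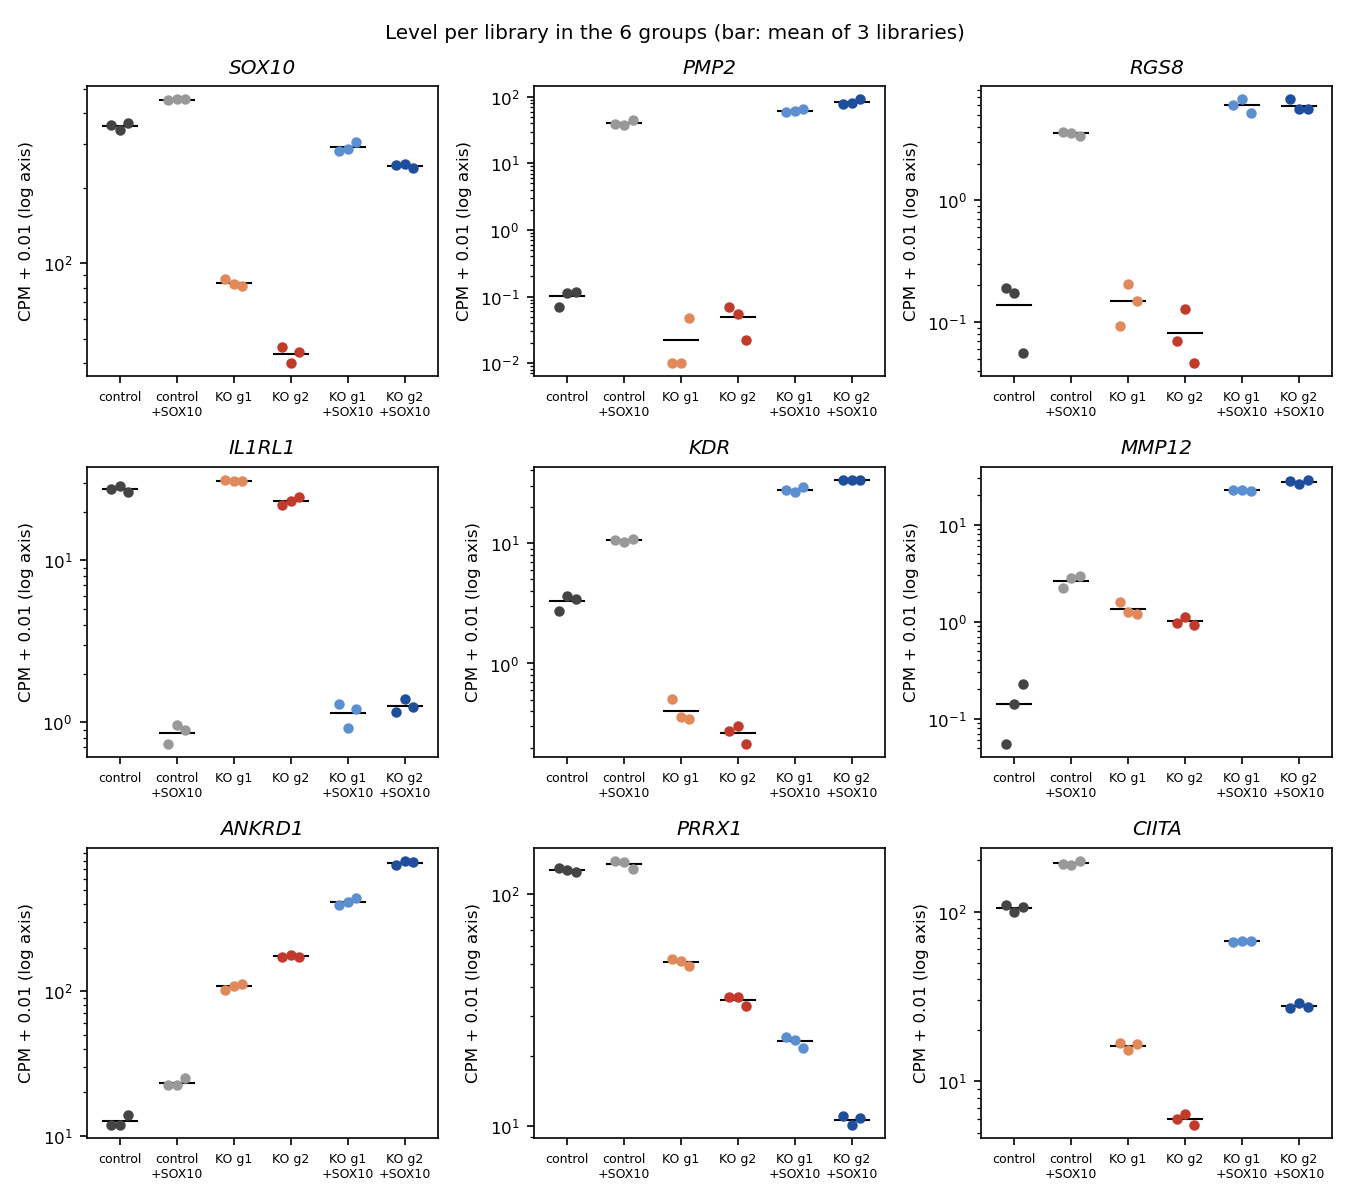
Level of 9 genes in each of the 18 libraries (y axis, CPM plus 0.01 on a log axis; x axis, the 6 groups; points are libraries, bars are means of 3). MMP12 and ANKRD1 stand highest where knockout and SOX10 coincide, IL1RL1 is low wherever SOX10 is overexpressed, and PRRX1 and CIITA are lower with guide 2 than with guide 1.

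Newly different genes were not called without SOX10 in the mean of the guides, and moved when SOX10 was added. The guides without SOX10 were not tested singly, so guides on opposite sides of control could cancel in that mean. By the naming rule, among newly different protein-coding genes with at least 10 control reads, the largest rise was that of TRIM48 (chromosome 11, 55262182 to 55271119). It is a tripartite motif gene with near-identical relatives, so that the assignment of its reads is uncertain. TRIM48 measured 0.119, 0 and 0.0461 CPM in control cells, 30.4, 28 and 25.5 CPM in guide 1 with SOX10 and 6.74, 7.59 and 6.67 CPM in guide 2 with SOX10. The guides were 4-fold apart, and control cells with SOX10 stood above both at 69.7 CPM. RGS8 (chromosome 1, 182641816 to 182684576), a regulator of G-protein signalling, measured 0.179, 0.163 and 0.0461 CPM in control cells, 6.05, 6.70 and 5.22 CPM in guide 1 with SOX10 and 6.73, 5.54 and 5.62 CPM in guide 2 with SOX10. The guides overlapped for RGS8, and the difference from control was 45.4-fold (SE of log2 0.21, adjusted p = 7.38e-25). Its control mean with SOX10 was 3.51 CPM.

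OLAH, a thioesterase that ends fatty acid synthesis, rose 43.7-fold from a control mean of 0.155 CPM to 7.62 and 6.17 CPM (adjusted p = 2.14e-25), while control cells with SOX10 had 0.677 CPM. ITM2A, a membrane protein of the BRICHOS family, rose 45.5-fold to 2.34 and 3.38 CPM, against 0.381 CPM in control cells with SOX10. ESRP1, a splicing regulator of epithelial cells, rose 23.8-fold to 3.50 and 4.02 CPM, and MAT1A, the methionine adenosyltransferase of liver, 28.2-fold to 2.54 and 3.24 CPM. Control cells with SOX10 had 2.77 CPM of ESRP1 and 0.619 CPM of MAT1A. The differences between the lines with SOX10 are given as levels only and were not tested.

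The newly lower genes named by rule, not called without SOX10 in the mean of the guides, were IL1RL1, PTPRO, EDNRA, FOXL1, RTL1 and COL5A3. IL1RL1 (chromosome 2, 102311502 to 102352037), the receptor for interleukin 33, measured 27.6, 29 and 26.3 CPM in control cells, 1.29, 0.91 and 1.20 CPM in guide 1 with SOX10 and 1.15, 1.38 and 1.23 CPM in guide 2 with SOX10. It fell 23.2-fold below control (log2 −4.54, SE 0.068, adjusted p = 1.3e-38), and the guides overlapped each other. Without SOX10 it had stood at 31.0 CPM in guide 1, every library above control, and 23.3 CPM in guide 2, every library below control. No difference from control was called in the mean of the guides (adjusted p = 0.527), which does not show an unchanged level. SOX10 in control cells gave 0.853 CPM. PTPRO, a receptor tyrosine phosphatase, was 5.72-fold lower (adjusted p = 2.32e-15), with 2.24, 2.00 and 2.29 CPM in control cells and 0.216 to 0.542 CPM in the other 6 libraries. EDNRA, the endothelin A receptor, measured 1.70, 1.59 and 1.84 CPM in control cells and 0.305 to 0.492 CPM in the other 6, a 4.52-fold difference. COL5A3, a fibrillar collagen chain, measured 15.3, 14.2 and 15.1 CPM in control cells and 3.71 to 6.02 CPM in the other 6, a 3.19-fold difference. Means in control cells with SOX10 were also below control for the other 3, at 0.523 CPM for PTPRO, 1.01 CPM for EDNRA and 3.42 CPM for COL5A3.

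Crossed genes passed from one side of control to the other. PMP2 (chromosome 8, 81440326 to 81447523), the fatty acid binding protein of peripheral myelin, measured 0.0596, 0.104 and 0.108 CPM in control cells, 59.8, 60.9 and 64.5 CPM in guide 1 with SOX10 and 78.6, 81.1 and 91.9 CPM in guide 2 with SOX10. The fitted PMP2 difference was 783-fold (log2 9.61, SE 0.14, adjusted p = 3.31e-29), with all 3 groups separate. In the knockout lines without SOX10 it had been called below control at 0.0126 and 0.0387 CPM, means near the level of 3 counts, and SOX10 in control cells gave 40.4 CPM. SLC18A1, a vesicular monoamine transporter, rose 76.0-fold, with 0.268, 0.104 and 0.461 CPM in control cells and 19.9 to 22.4 CPM in the other 6 libraries. MUC7, a salivary mucin, rose 72.4-fold, with 0.0894, 0.208 and 0.123 CPM in control cells, 9.40, 9.23 and 8.88 CPM in guide 1 with SOX10 and 11.0, 11.8 and 11.8 CPM in guide 2 with SOX10.

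In the opposite direction, NTSR1, the neurotensin receptor, measured 2.74, 3.23 and 2.92 CPM in control cells and 0.143 to 0.526 CPM in the 6 libraries with knockout and SOX10. Its means without SOX10 had been above control, at 4.40 and 4.11 CPM, so that NTSR1 ended 10.7-fold below a level it had exceeded (adjusted p = 8.49e-19). PCSK1, a prohormone convertase, measured 22.3, 20.1 and 20.8 CPM in control cells, 4.88, 4.63 and 4.55 CPM in guide 1 with SOX10 and 3.15, 2.88 and 2.76 CPM in guide 2 with SOX10, after 34.9 and 24.0 CPM without SOX10. UNC5D, a netrin receptor, measured 3.41, 4.18 and 3.74 CPM in control cells and ended 5.04-fold below control. Without SOX10 its mean was 7.71 CPM in guide 1 and 4.20 CPM in guide 2, where the libraries (3.88 to 4.38 CPM) overlapped control. Control cells with SOX10 were low for all 3 genes, at 0.218 CPM of NTSR1, 3.49 CPM of PCSK1 and 0.714 CPM of UNC5D.

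Genes of the SOX10, Schwann cell and neural crest list showed the widest range. Of its 32 members tested, 13 were higher and 14 lower than control (30% and 27.9% of all genes), with a median log2 difference of 0, beside 0.014 for all genes. Without SOX10, 24 of the 32 had been lower and 4 higher, with a median of −1.51. Among the 32, 15 remained different, 8 crossed, 4 were newly different and 5 were no longer different. MOBP (chromosome 3, 39467198 to 39529479), a myelin basic protein of oligodendrocytes, had 1 read in the 3 control libraries together. It measured 12.1, 12.9 and 10.8 CPM in guide 1 with SOX10 and 16.7, 15.5 and 14.1 CPM in guide 2 with SOX10, and the ratio to control was 2740 with a 95% counting interval of 491 to 108000. Control cells with SOX10 had 6.36 CPM of MOBP. SOX6, a SOX factor of the SOXD group, measured 4.38, 3.63 and 5.07 CPM in control cells and 28.5 to 32.7 CPM in the 6 libraries, after 0.873 and 0.381 CPM in the knockout lines without SOX10. FABP7, the brain fatty acid binding protein, measured 2.82, 2.85 and 3.00 CPM in control cells, 19.9, 20.3 and 20.5 CPM in guide 1 with SOX10 and 14.4, 15.6 and 13.4 CPM in guide 2 with SOX10. RXRG, a retinoid receptor of early Schwann and melanoma states, measured 8.56, 7.87 and 8.68 CPM in control cells, 19.8, 20.1 and 19.5 CPM in guide 1 with SOX10 and 12.7, 12.2 and 13.1 CPM in guide 2 with SOX10. It had crossed from 0.309 and 0.102 CPM, and control cells with SOX10 had 74.3 CPM of it. The cell adhesion gene NCAM1 was newly higher at 5.64 and 6.05 CPM against 1.58 CPM in control cells.

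Other lineage genes were not called above control in the mean of the guides. SOX9, which the knockout had raised by 3.20 on the log2 scale, measured 2.31, 2.12 and 2.08 CPM in control cells, 2.10, 1.53 and 1.97 CPM in guide 1 with SOX10 and 2.55, 2.58 and 2.66 CPM in guide 2 with SOX10 (log2 0.02, adjusted p = 0.884). Every guide 2 library lay above the SOX9 controls and guide 1 libraries lay partly below them. The uncalled average thus does not show that SOX9 equalled control. ERBB3, the neuregulin receptor of the Schwann and melanocyte lineage, measured 363, 346 and 352 CPM in control cells, 160.0, 160.0 and 153 CPM in guide 1 with SOX10 and 112, 107 and 104 CPM in guide 2 with SOX10. ERBB3 thus remained 2.72-fold lower (adjusted p = 2.41e-34), although it had risen from 30.7 and 13.8 CPM. TFAP2B, an AP-2 factor of the neural crest, measured 82.0 CPM on average in control cells, 14.2 CPM in guide 1 with SOX10 and 3.72 CPM in guide 2 with SOX10. Without SOX10 its means were 7.84 CPM in guide 1, below the level with SOX10, and 4.81 CPM in guide 2, above it. SOX5, SOX2, FOXD3 and SOX8 also remained at least 2-fold lower.

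**Figure D3:**
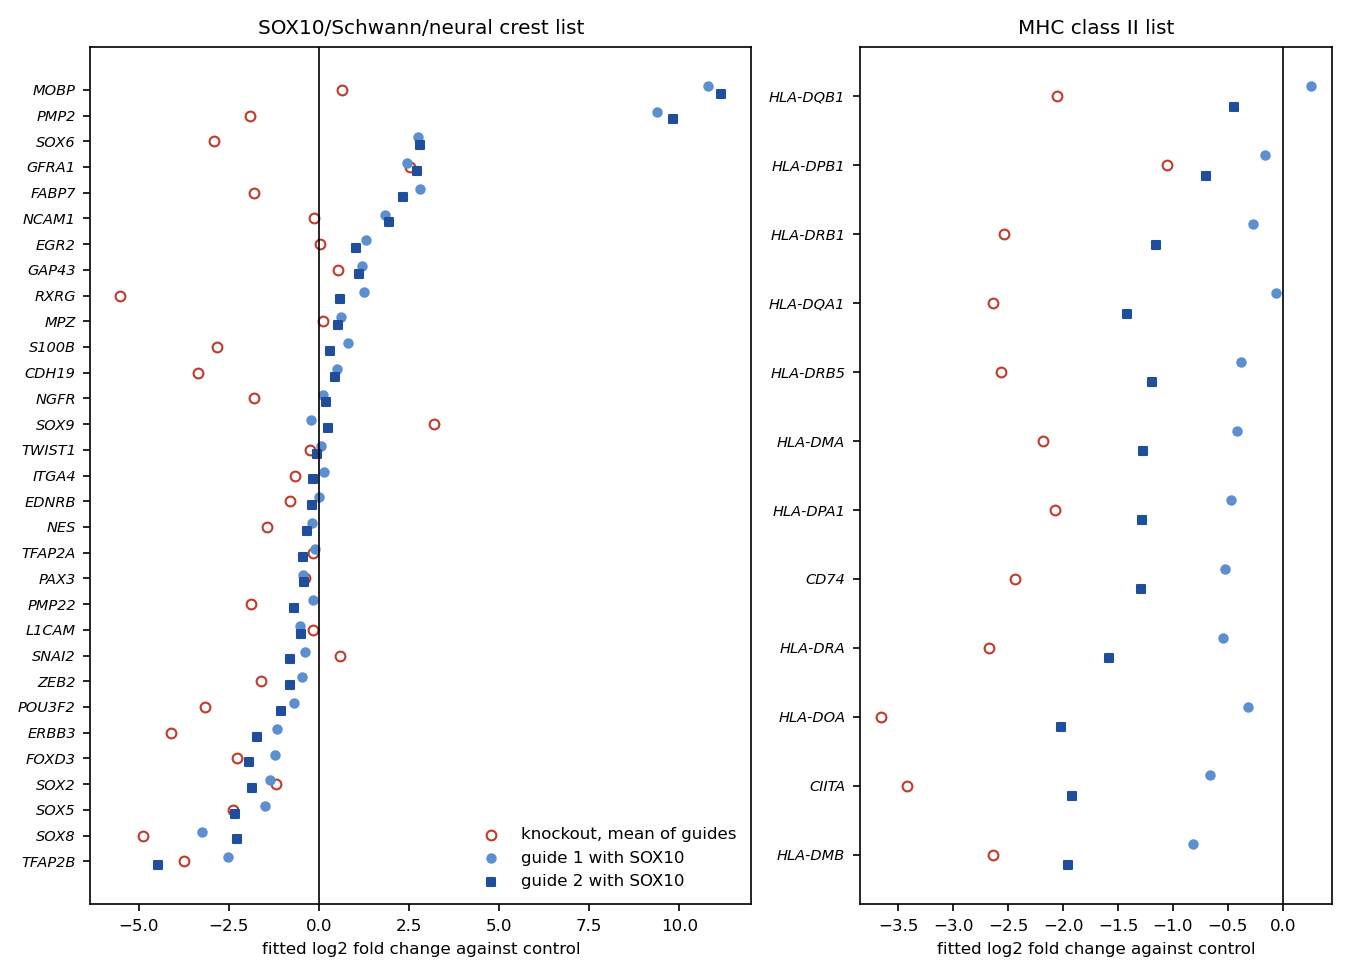
Fitted log2 fold change against control (x axis) of tested members of the SOX10, Schwann and neural crest list (left) and of each tested member of the MHC class II list (right). Open circles are the knockout without SOX10, filled circles guide 1 with SOX10 and squares guide 2 with SOX10; MOBP and PMP2 stand far to the right with SOX10, and 11 of the 12 class II genes were called below control, with guide 2 lower than guide 1.

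Promoter sequences are shown for 3 of the genes that rose from near 0, because SOX proteins bind a short core that can be looked for there. The words searched were ACAAAG and ACAATG on both strands, which open with the same letters, in the window from 250 bases before to 50 bases after the RefSeq start (GRCh38.p14). Capitals mark the matches. They lie at chr3:39467430-39467729 (plus strand) for MOBP, chr4:70430242-70430541 (plus strand) for MUC7 and chr1:182752327-182752626 (minus strand) for RGS8, whose RefSeq start is outside the gene span given above.
MOBP: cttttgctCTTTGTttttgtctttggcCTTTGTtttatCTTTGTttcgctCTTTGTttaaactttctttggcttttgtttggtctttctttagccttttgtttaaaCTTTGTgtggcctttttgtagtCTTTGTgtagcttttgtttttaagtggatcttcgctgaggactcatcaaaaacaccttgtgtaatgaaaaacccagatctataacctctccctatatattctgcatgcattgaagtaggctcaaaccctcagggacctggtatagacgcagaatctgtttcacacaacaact
MUC7: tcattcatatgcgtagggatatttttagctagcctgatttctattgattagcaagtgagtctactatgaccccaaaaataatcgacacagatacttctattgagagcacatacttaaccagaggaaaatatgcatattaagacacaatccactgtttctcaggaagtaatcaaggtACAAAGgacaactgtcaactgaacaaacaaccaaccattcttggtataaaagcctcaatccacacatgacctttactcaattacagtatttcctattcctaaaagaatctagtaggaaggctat
RGS8: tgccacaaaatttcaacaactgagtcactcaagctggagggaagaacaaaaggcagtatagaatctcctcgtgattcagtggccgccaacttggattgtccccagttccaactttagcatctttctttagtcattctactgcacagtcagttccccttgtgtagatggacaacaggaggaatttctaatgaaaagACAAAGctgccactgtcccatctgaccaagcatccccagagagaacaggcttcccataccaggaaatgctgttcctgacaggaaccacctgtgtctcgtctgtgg
The MOBP window held 6 matches, all to ACAAAG on the strand opposite to the gene, and the other 2 windows held 1 match each, to ACAAAG on the gene's strand. Of the other genes named here whose window was searched, IL1RL1, EDNRA and COL5A3, which were lower than control, held 1 match each. TRIM48, ITM2A, MAT1A and SOX6, which were higher, held none, and neither did PTPRO, RTL1, NTSR1, PCSK1 and TFAP2B, which were lower. Matches were thus found among both higher and lower genes. A match was held by 24.6% of all 27305 windows given by RefSeq and by 16.8% of the 11753 windows of protein-coding genes tested. A match is a description of the sequence and not evidence of binding.

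Some genes went from almost no reads to a clear level. In all, 19 of the 14631 protein-coding genes tested had fewer than 10 reads in the 3 control libraries together and at least 1 CPM with each guide. They were chosen by these same levels, so their ratios to control are descriptive and test nothing. GPR65, a proton-sensing receptor, and LRP2, the endocytic receptor megalin, had 0 control reads. Against a floor of 3 counts over the control group, GPR65 was at least 157-fold higher and LRP2 at least 135-fold higher. SLC5A4, a glucose transporter family member, had 3 control reads and a ratio of 265 (95% counting interval 90.6 to 1290), and NMUR2, a neuromedin receptor, had 2 and a ratio of 212 (58.5 to 1750). CNTN6, a neural contactin, had 5 control reads against 2647 with knockout and SOX10. All 5 were newly different genes, but the 19 were not all of that class. INSC (1 control read, ratio 262, interval 46.8 to 10400) and C1orf116 (6 control reads, ratio 132, interval 60.5 to 360) were remaining genes, called higher without SOX10 too. Intervals and floors cover counting error only.

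The counts for the gene lists that follow stand beside 30% of all genes higher and 27.9% lower, and a median log2 difference of 0.014 over all genes. MHC class II genes remained low. None of the 12 members tested was higher and 11 were lower, with a median log2 difference of −0.86 (−2.55 without SOX10). All 12 had risen with SOX10 within the knockout lines. CIITA, the master coactivator of this gene set, measured 110.0, 100 and 107 CPM in control cells, 66.3, 66.7 and 67.5 CPM in guide 1 with SOX10 and 27.1, 29.1 and 27.4 CPM in guide 2 with SOX10. Its groups were all separate, and it was 2.45-fold lower on average (adjusted p = 6.45e-31), after 16.3 and 5.99 CPM without SOX10. HLA-DRA, the alpha chain of HLA-DR, measured 502, 517 and 555 CPM in control cells, 353, 352 and 373 CPM in guide 1 with SOX10 and 175, 178 and 172 CPM in guide 2 with SOX10. HLA-DQB1 was the member not called (log2 −0.10). HLA genes resemble each other closely, so the split of reads among them is uncertain. Of 18 class I genes 6 were higher and 8 lower with TMM, and 9 and 4 with library-size scaling.

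Interferon-stimulated genes remained high. Of 41 tested, 35 were higher and 2 lower, with a median log2 difference of 0.88, and 19 were at least 2-fold higher. SOX10 had lowered 29 of them within the knockout lines, from a median of 1.27. MX1, an antiviral GTPase, measured 5.58, 5.65 and 5.35 CPM in control cells, 18.3, 12.8 and 17.0 CPM in guide 1 with SOX10 and 19.3, 18.5 and 16.4 CPM in guide 2 with SOX10. No library overlapped control, and MX1 remained 3.08-fold higher (adjusted p = 3.98e-08), after 23.5 and 26.7 CPM without SOX10. ISG15, a ubiquitin-like modifier, measured 0.745, 0.845 and 0.784 CPM in control cells, 4.33, 3.32 and 3.45 CPM in guide 1 with SOX10 and 4.47, 4.77 and 3.62 CPM in guide 2 with SOX10. BST2, which restrains viral release, was not called with SOX10 (log2 0.02) although it had been 2.41 higher on that scale without it.

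Outputs of the MAPK pathway, the growth signal that the BRAF mutation of A375 keeps active, were mostly lower. Of 25 tested, 17 were lower and 7 higher, with a median log2 difference of −0.63 (−0.62 without SOX10). DUSP4, an ERK phosphatase, measured 433, 425 and 438 CPM in control cells, 151, 153 and 145 CPM in guide 1 with SOX10 and 109, 103 and 101 CPM in guide 2 with SOX10. The DUSP4 groups were separate, at 3.45-fold below control (adjusted p = 2.78e-40), against 316 and 215 CPM without SOX10. CCND1, the cyclin of the G1 phase, measured 1090.0, 1090.0 and 1070.0 CPM in control cells, 646, 679 and 664 CPM in guide 1 with SOX10 and 506, 497 and 516 CPM in guide 2 with SOX10. SPRY4 and SPRY2, feedback inhibitors of receptor signalling, remained 2.73-fold and 2.23-fold lower. FOS, an AP-1 subunit, went the other way, at 3.94, 3.83 and 4.20 CPM in control cells and 7.83 to 8.95 CPM in the 6 libraries.

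Of the immediate-early AP-1, EGR and NR4A genes, 13 of 19 were higher and 6 lower, with a median of 0.50 after 0.04 without SOX10. NR4A3 and ATF3 were at log2 differences of 1.72 and 1.5, and NR4A2 and FOSL1 at −1.55 and −1.14. Among 26 YAP and TEAD genes 14 were higher and 7 lower with a median of 0.12, beside 30% higher and 27.9% lower over all genes. The matricellular gene CCN2 measured 72.8, 80.9 and 79.4 CPM in control cells, 561, 593 and 622 CPM in guide 1 with SOX10 and 854, 884 and 916 CPM in guide 2 with SOX10. CCN2 was thus 9.32-fold higher with the groups apart, while the coactivator genes YAP1 and WWTR1 were lower, at −0.28 and −1.52.

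Pigment genes were split. Of 16 tested, 7 were higher and 4 lower with TMM (8 and 1 with library-size scaling), beside 30% and 27.9% of all genes, and the median log2 difference was 0.37. DCT, a melanin-synthesis enzyme, measured 1.04, 0.979 and 1.01 CPM in control cells, 23.8, 23.7 and 20.8 CPM in guide 1 with SOX10 and 6.77, 6.51 and 6.49 CPM in guide 2 with SOX10. It had crossed from 0.0566 and 0.0793 CPM, and control cells with SOX10 had 156 CPM. MITF, the melanocyte master regulator, measured 40.0, 39.1 and 40.1 CPM in control cells, 66.9, 64.9 and 60.7 CPM in guide 1 with SOX10 and 59.0, 54.5 and 55.5 CPM in guide 2 with SOX10. MITF was 1.51-fold higher with no overlap (adjusted p = 6.13e-19). MLPH, a melanosome transport adaptor, was 3.66-fold lower, at 1.23 and 1.26 CPM against 4.52 CPM.

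Receptor tyrosine kinase genes were 11 higher and 11 lower of 30 with TMM, with a median log2 difference of 0.10 beside 0.014 for all genes, and 16 and 8 with library-size scaling. The share of higher genes over all genes was 30% and that of lower genes 27.9%. KDR, the main receptor of VEGF, measured 2.70, 3.65 and 3.43 CPM in control cells, 27.6, 26.7 and 29 CPM in guide 1 with SOX10 and 33.2, 33.2 and 33.1 CPM in guide 2 with SOX10. It crossed from 0.395 and 0.254 CPM to 9.30-fold above control (adjusted p = 2.51e-32). AXL measured 521, 541 and 535 CPM in control cells and 316 to 369 CPM in the 6 libraries, and EGFR, which the knockout had raised to 94.7 and 95.3 CPM, ended just below control (log2 −0.22). Genes of the AXL-high, dedifferentiated melanoma state were 10 higher and 17 lower of 33, but 15 and 14 with library-size scaling.

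Of 25 plasminogen, metalloprotease and inhibitor genes, 10 were higher and 11 lower (12 and 10 with library-size scaling), beside 30% and 27.9% of all genes, and the median was 0.04. PLAU, the urokinase gene, measured 0.0298, 0.148 and 0.169 CPM in control cells, 3.27, 3.80 and 2.90 CPM in guide 1 with SOX10 and 4.43, 3.90 and 3.94 CPM in guide 2 with SOX10, a 31.6-fold difference. MMP10 remained 17.3-fold higher, whereas MMP1, which had been at 36.7 and 35.6 CPM without SOX10, ended 2.50-fold below control. TIMP3, a metalloprotease inhibitor, measured 1850.0, 1860.0 and 1850.0 CPM in control cells, 558, 577 and 560.0 CPM in guide 1 with SOX10 and 296, 297 and 291 CPM in guide 2 with SOX10 (4.55-fold lower, adjusted p = 3.63e-46).

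Matrix genes were 13 higher and 18 lower of 35 (15 and 13 with library-size scaling), with a median of −0.09, beside 30% higher and 27.9% lower over all genes. LUM, the proteoglycan lumican, measured 2.46, 3.08 and 2.27 CPM in control cells and 36.9 to 44.2 CPM in the 6 libraries. COL6A3, a type VI collagen chain, was lower at 3.53 and 2.98 CPM against 21.0 CPM, and COL6A1, COL6A2 and BGN were also at least 2-fold lower. Integrin and cadherin genes were 9 higher and 18 lower of 29, led by CDH6 (13.4-fold lower), and axon guidance genes 11 higher and 17 lower of 36 with a median of −0.13, with SEMA5A and SLIT3 20.8-fold and 10.8-fold higher.

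Proliferation and metabolic lists moved by small amounts, beside a shift of the median of all genes by 0.147 between the scalings. All 27 G2 and M phase genes were lower with a median of −0.39, and 24 were lower and 1 higher with library-size scaling. Of 28 S phase genes 20 were lower and 2 higher with TMM, but 8 were lower and 9 higher with library-size scaling. Of 30 MYC and ribosome biogenesis genes 26 were lower and none higher, against 18 and 2 with the other scaling. Among 29 hypoxia and glycolysis genes 18 were lower and 4 higher, against 16 and 9. Of 31 SAGA and ATAC subunit genes, 8 were higher and 11 lower, against 14 and 7 with library-size scaling. The acetyltransferase gene KAT2B was the member at least 2-fold from control, with 39.5, 37.6 and 37.8 CPM in control cells, 105, 99.5 and 93.5 CPM in guide 1 with SOX10 and 69.2, 63.8 and 68.8 CPM in guide 2 with SOX10. Control cells with SOX10 had 175 CPM of KAT2B.

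**Figure D4:**
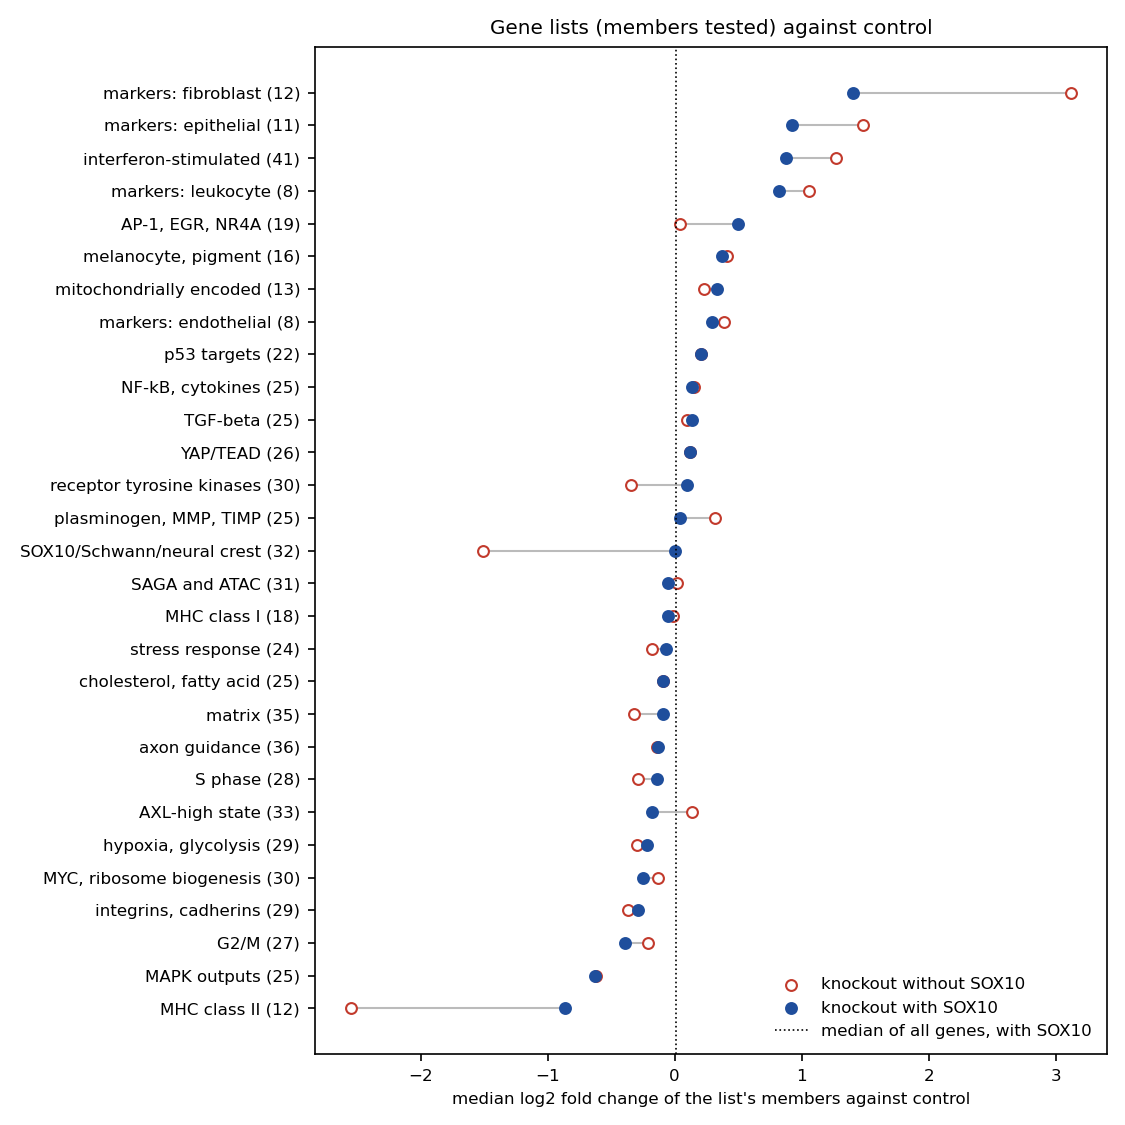
Median log2 fold change against control of the tested members of each gene list (x axis; number of members in parentheses on the y axis), open circles without SOX10 and filled circles with SOX10; the dotted line is the median of all genes with SOX10. MHC class II genes stand lowest at −0.86 with SOX10 and interferon genes at 0.88; the medians of the MHC class I, SAGA, stress, cholesterol, matrix, axon guidance and S phase lists change sign with library-size scaling.

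Markers of other cell types were read in the same libraries. In bulk RNA, more cells of a type and more RNA per cell cannot be told apart. Of 11 epithelial markers tested 8 were higher, among them SFN, KRT8, DSP and CLDN1, 1 was lower and 2 were not called. The summed level of the list was 295 to 298 CPM in control cells, 507 to 535 CPM in guide 1 with SOX10 and 580 to 585 CPM in guide 2 with SOX10. Without SOX10 the sum was already 523 to 538 CPM in guide 1 and 546 to 571 CPM in guide 2. CDH1 and DSG3 were at 0 in control cells. Of 12 fibroblast markers 7 were higher, 1 was lower and 4 were not called, but the summed level was 136 to 144 CPM in control cells and 75.8 to 81.7 CPM in the 6 libraries. PRRX1 gave 127 CPM of that sum in control cells. Leukocyte markers summed to 12.9 to 14.1 CPM in control cells, 32.9 to 34.9 CPM in guide 1 with SOX10 and 42.0 to 42.5 CPM in guide 2 with SOX10. Of their 8 members tested 4 were higher and 2 lower, LCP1 among the higher ones, and CD3E, MS4A1 and TYROBP were among those at 0 in all 6 libraries. Endothelial markers summed to 6.71 to 8.36 CPM in control cells and 31.9 to 39.3 CPM in the 6 libraries, of which KDR gave 27.7 and 33.1 CPM on average in the respective guides, and ERG was at 0. Mitochondrially encoded genes were higher for 7 of 13 with TMM and 12 of 13 with library-size scaling, and at 1 of them the libraries were fully apart. The part of these in the results above was not tested.

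Guide 2 with SOX10 and guide 1 with SOX10 differed at 2539 genes (12.1%), 1063 higher in guide 2 (5.05%) and 1476 lower (7.01%), and at 140 genes at least 2-fold (0.665%). Among the genes called against control on average, 2315 were called in 1 guide only. SOX10 itself was lower in guide 2 than in guide 1, as the levels above show, and its part in these differences was not tested.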

How the data were processed

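Per the labels' protocols, total RNA was column-purified, and the KAPA Stranded mRNA-Seq kit was used for the libraries. Per the submitters' processing notes, HISAT2, HTSeq and genome build hg38 were used. Tool versions, gene annotation and strandedness were not stated, so reads of overlapping or antisense genes could not be told apart. The authors deposited raw counts per gene with no normalization. Of 58721 identifiers, 58676 were in GENCODE 29, the source of coordinates, and 58207 had a symbol.

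The tests used edgeR 4.0.16 (R 4.3.3) with filterByExpr, TMM, 1 model of 6 group means over all 18 libraries (12 residual degrees of freedom), two-sided quasi-likelihood F tests and Benjamini-Hochberg adjustment over 21060 genes. A called gene has an adjusted p under 0.05, and 2-fold counts also need an absolute log2 difference of 1. SE is that of the log2 difference. Alternatives were DESeq2 1.42.0, RLE and library-size scaling, 2 other filters, a fit of the compared groups alone, a replicate block and leaving out each library. The code was tested on simulated data. Pairs within a group had a chi-square per degree of freedom of 3.96 to 8.52 among the 9 compared libraries. Over all 18 it ran from 3.54 to 11.9, highest for the pairs with replicate 2 of guide 2 without SOX10 (11.9 and 10.4). All libraries were kept.

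Genes named by rule were, per direction, the 6 largest log2 differences among remaining and among newly different protein-coding genes and 3 among crossed and among moved-away genes, with at least 1 CPM on the higher side and 10 reads on the lower side, and the 4 furthest members of each list. Other genes were named after their values were seen. The members, classes and lists were chosen with earlier results of these data known. Some members of the lists are counted but not reported here by name.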

Additional observations from a re-analysis of the deposited data

Results flagged for a closer look

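Among the 139 genes named by rule, 77 differed between guide 2 with SOX10 and guide 1 with SOX10 in edgeR's quasi-likelihood test, and 14 of these did so at least 2-fold. All 14 were lower in guide 2. For genes below control, guide 2 stood further from it. The log2 differences of guide 2 minus guide 1 were −1.19 for TMEM178B, −1.67 for FXYD3, −1.54 for CEMIP, −1.63 for FAM20C, −1.41 for PKNOX2 and −1.12 for PRRX1 among remaining genes, and −1.41 for RTL1 among newly lower ones. RTL1, a retrotransposon-derived imprinted gene, had a mean of 0.881 CPM in guide 1 with SOX10 and 0.322 CPM in guide 2 with SOX10, against 1.76 CPM in control cells. Without SOX10 its mean was 2.16 CPM in guide 1 and 0.987 CPM in guide 2, on opposite sides of the control mean. RTL1 is thus newly lower only by the mean of the guides, and guide 2 already stood low without SOX10. For the neural crest factor TFAP2B the difference was −1.93. Class II genes differed by −1.14 for HLA-DMB, −1.26 for CIITA, −1.71 for HLA-DOA and −1.04 for HLA-DRA. For 2 genes above control, guide 2 stood nearer to it. TRIM48 differed by −2.0, with 28 CPM in guide 1 with SOX10 and 7.00 CPM in guide 2 with SOX10, and DCT by −1.79, with 22.8 and 6.59 CPM. Adjusted p-values of the 14 ran from 1.55e-26 for HLA-DRA to 0.00194 for TMEM178B.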

How the results depend on the processing

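The total of 12192 called genes stayed between 10079 (filter at a mean of 1 CPM) and 12451 (library-size scaling). Of 16 alternatives, no named gene reversed in any that tested it. Library-size scaling moved the number of lower genes to 3295 on average over the guides, 2787 for guide 1 and 3266 for guide 2, and the knockout without SOX10 to 9112 higher and 3545 lower. It kept the class of 938 of the 2389 newly different genes, 631 of the 1122 crossed genes and 5952 of the 8025 remaining genes. At least 2-fold, it kept 470 of 540, 194 of 224 and 1656 of 1761. A filter at a mean of 1 CPM, which tests 14194 genes, gave 834 genes at least 2-fold higher and 284 lower, and at least 2-fold 80 newly different, 131 crossed and 903 remaining genes. Leaving out 1 of the 9 libraries at a time gave 11266 to 12068 called genes.

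Of the 139 named genes, 4 lost their call in some alternative: HLA-G (log2 −0.42 with library-size scaling, adjusted p = 0.0869), PTPRC (2.01 without control replicate 2, adjusted p = 0.0831), CD3D (2.50 with DESeq2, adjusted p = 0.0502) and MT-ND5 (0.35 without control replicate 3, adjusted p = 0.105). Named genes that a filter removed, such as CA9 with the filter at a mean of 1 CPM, were not assessed in that alternative. Of 58 counts of list members, 19 moved by over 1.5 times in some alternative and 14 with library-size scaling. The replicate block gave 12297 called genes, of which 12125 were among the 12192. Same-numbered libraries deviated together with correlations of −0.016 to 0.046 over 9 pairs, against −0.034 to 0.019 over 18 pairs of different number. Between control and guide 1 with SOX10, same-numbered pairs had 0.029 to 0.046 and the others −0.034 to −0.006. Same-numbered pairs that included guide 2 with SOX10 had −0.016 to 0.013. Whether the numbers mark a shared preparation cannot be settled from these correlations.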
